A study of Mus musculus with 7 samples.

Results

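The acute-phase protein genes of mouse liver were examined for binding of CTCF and of the cohesin subunit Rad21. The members were the 4 serum amyloid A genes Saa1, Saa2, Saa3 and Saa4, the orosomucoid genes Orm1 and Orm2, and Hp, Crp, Lbp and Apcs, which makes 10 of the 22350 protein-coding genes on the autosomes and X. Each gene span was extended by 50 kb on both sides, with the Saa genes taken as a single span and the Orm genes as a single span, which gave 6 windows. All CTCF and Rad21 peaks that overlapped a window were taken: 54 of the 68667 CTCF peaks and 62 of the 68656 Rad21 peaks. The peaks came from chromatin immunoprecipitation with sequencing (ChIP-seq) of liver nuclei, crosslinked with formaldehyde, from female mice of the outbred strain Crl:CD1(ICR), aged 8 weeks, for which the labels name no treatment. The CTCF list was called on the pooled reads of 4 libraries and the Rad21 list on those of 3 libraries. A pooled list holds no replicate values, so each value is given without an error between animals, and no test between groups could be made. The peak lists hold no library depths, which were not used here, and weak binding below the peak caller's threshold was not detectable. Whole liver is mostly hepatocytes, and signal from other liver cells cannot be told apart from theirs.

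In the acute-phase response, interleukin-6 and interleukin-1 from activated macrophages act on hepatocytes, and transcription factors such as STAT3, C/EBP proteins and NF-kB raise the transcription of genes for secreted plasma proteins. CTCF is a zinc finger protein that binds a long, directional DNA motif, and cohesin is a ring complex that extrudes DNA loops and tends to stop at CTCF sites whose motifs point toward each other. Cohesin is also found without CTCF, often at enhancers and promoters that are active in a given tissue. The labels name no inflammatory stimulus, and no expression values were measured in these samples.

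Peaks were sorted by overlap of at least 1 bp. CAC (cohesin-and-CTCF) peaks were present in both lists, Lone CTCF peaks in the CTCF list alone, and CNC (cohesin-non-CTCF) peaks in the Rad21 list alone. Of the 54 CTCF peaks around the acute-phase genes, 42 were CAC and 12 were Lone CTCF. The CAC share was 77.8% (95% Wilson interval 65.1 to 86.8%, which covers counting error only), and 73.7% of all CTCF peaks were CAC. Of the 62 Rad21 peaks, 42 were CAC and 20 were CNC. The CNC share was 32.3% (22.0 to 44.6%), and 26.4% of all Rad21 peaks were CNC. Both intervals included the share in the whole list, but they treat neighbouring peaks as independent and are no test. Peak strength was read as fold enrichment, the height of the pooled reads at the summit over the local background that the peak caller estimated. The median fold enrichment was 5.95 for the CTCF peaks in the windows and 6.05 in the whole list, and 4.4 for the Rad21 peaks against 4.93 in the whole list. Within the Rad21 list, the CNC peaks in the windows had a median of 3.33 and a highest value of 5.99, while Rad21 at CAC peaks had a median of 5.85 and reached 22.9. In the whole list the medians were 3.48 for CNC and 6.15 for Rad21 at CAC peaks. Of the 20 CNC summits in the windows 15 were intergenic, 3 were in exons and 2 in introns, and of all 18133 CNC summits 39.5% were intergenic, 8.66% in exons and 51.8% in introns. The intergenic share of the window sequence was not computed, so these values cannot be read as a trait of the CNC peaks. The Crp and Apcs windows hold no protein-coding gene but the member.

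**Figure D1:**
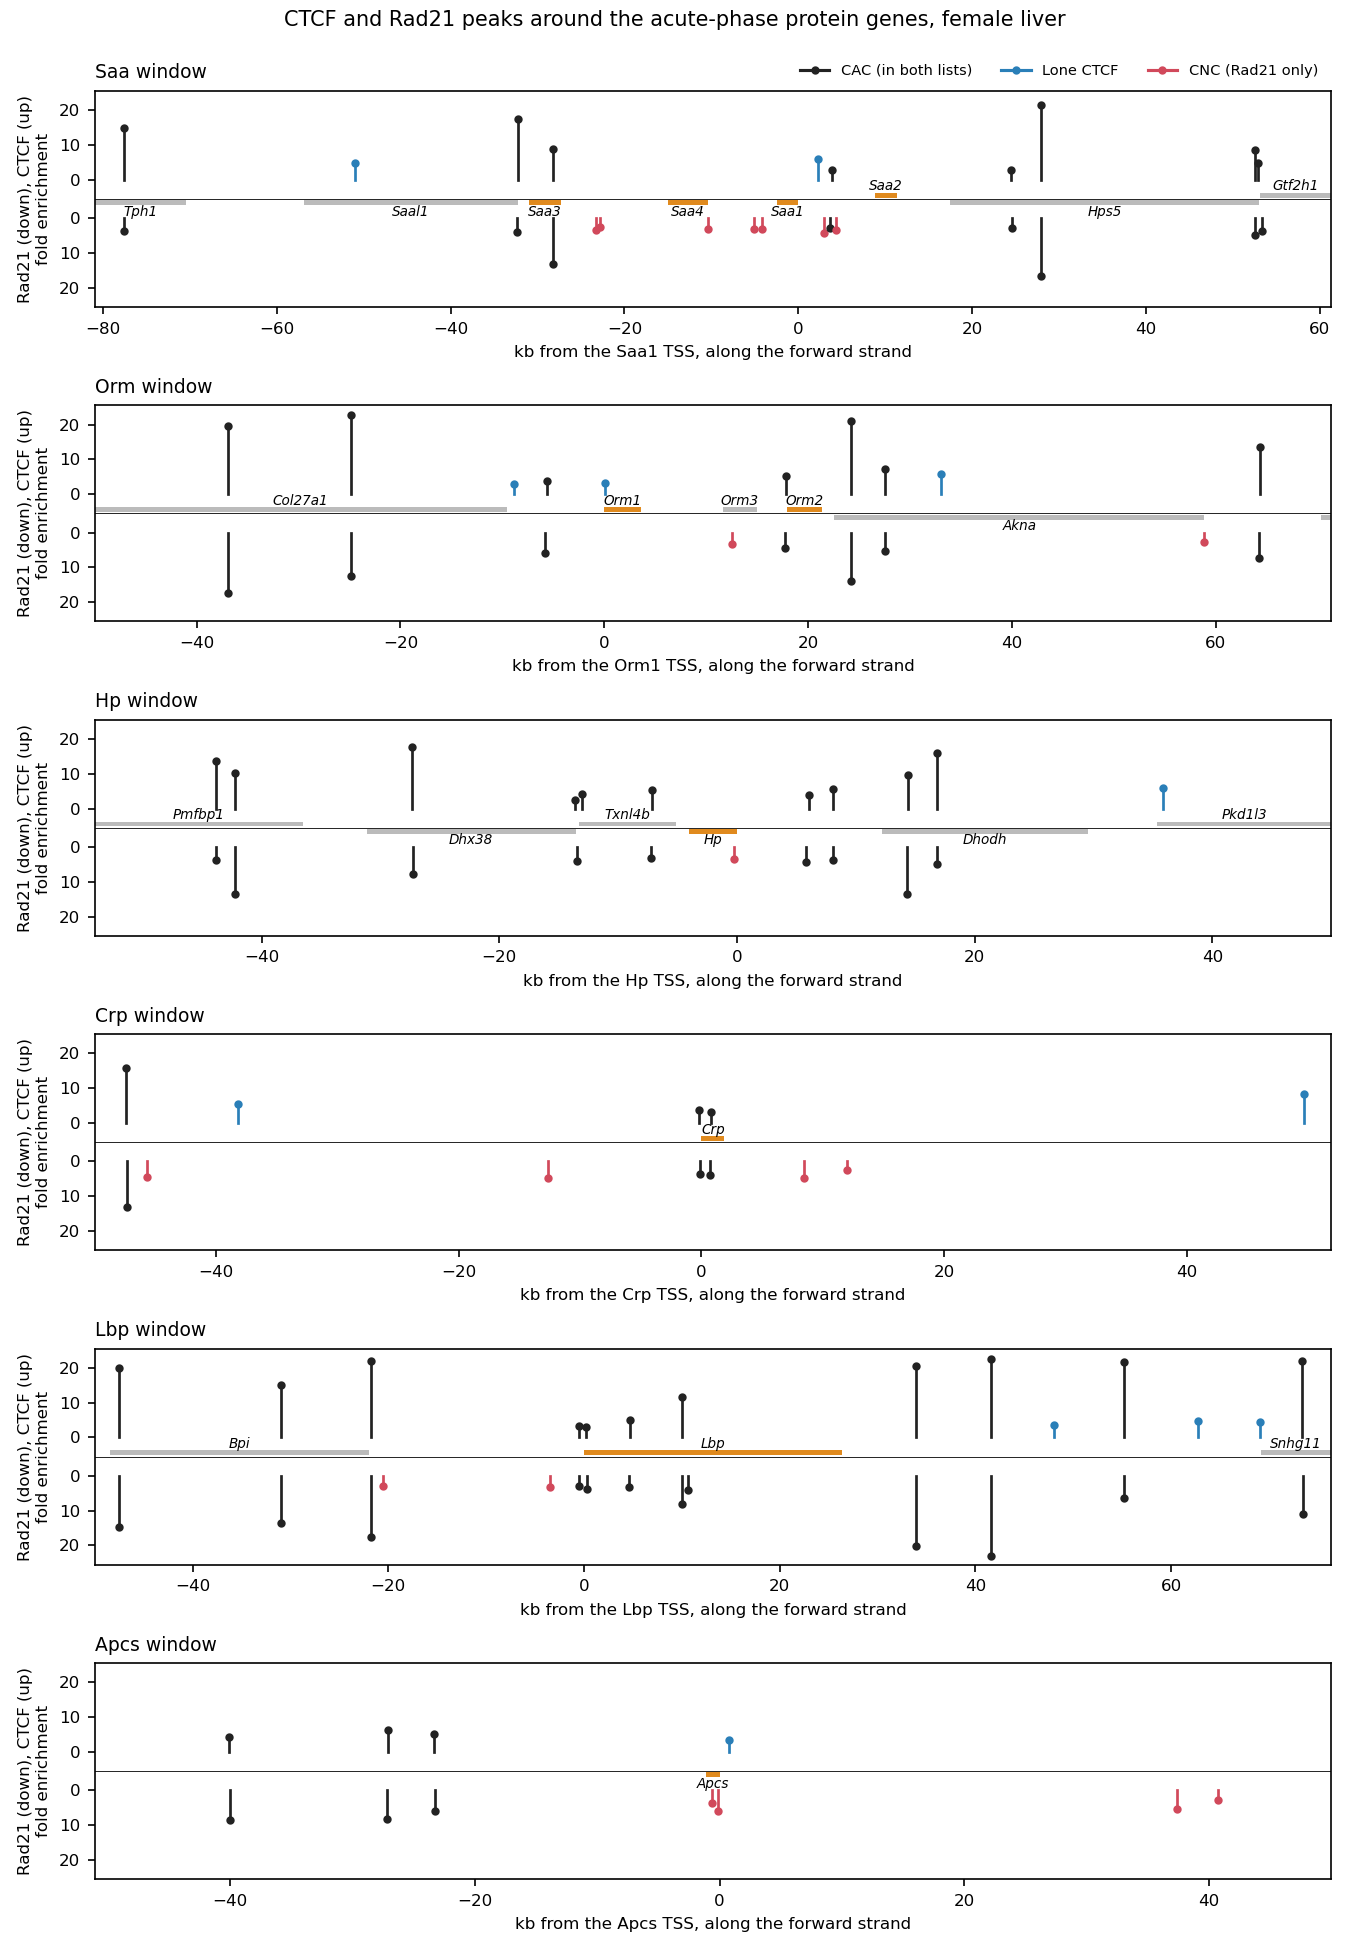
Peaks in the 6 windows by distance in kb from a member's transcription start site (TSS), with CTCF fold enrichment drawn upward and Rad21 fold enrichment downward; orange bars are members, grey bars other protein-coding genes (forward strand above the line, reverse strand below, Whrn at the right edge of the Orm window without its name). The CNC peaks of the Saa window stood between Saa3 and Saa2, and the tallest peaks of the Orm and Lbp windows stood outside the member genes.

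The Saa window (chr7:53917368-54059684, mm9) held 10 CTCF and 15 Rad21 peaks. Serum amyloid A proteins are apolipoproteins carried on high-density lipoprotein. Saa1 and Saa2 are the main acute-phase forms made by liver, Saa3 is made by macrophages, fat and other tissues, and Saa4 is the constitutive form. Saa3, Saa4 and Saa1 are transcribed from the reverse strand and Saa2 from the forward strand, so that Saa1 and Saa2 diverge from TSSs 8.85 kb apart. Of the 15 Rad21 peaks 7 were CNC, and all 7 lay within 28.1 kb between the Saa3 TSS and the Saa2 gene. Their fold enrichment ran from 2.49 to 4.39. The strongest of them (chr7:54001162-54001905, 4.39) and another (chr7:54002557-54003025, 3.34) lay in the stretch between the Saa1 and Saa2 TSSs, on both sides of a weak CAC peak (CTCF 2.75, Rad21 2.79). A Lone CTCF peak of 5.85 lay 2292 bp upstream of Saa1. A further pair of CNC peaks lay downstream of Saa1, 4170 and 5080 bp past its TSS, with values of 3.18 and 3.11, and a pair lay 4068 and 4480 bp upstream of Saa3, with 3.48 and 2.49. The remaining CNC peak covered the Saa4 TSS, with its summit 37 bp upstream and a value of 3.11.

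Neither list held a peak within 1 kb of the Saa1 or Saa2 TSS. The nearest Rad21 peak edge was 2812 bp from the Saa1 TSS and 4178 bp from the Saa2 TSS. The 250 bases before both TSSs are shown because these promoters are near copies of each other: they aligned with 94.8% identity (238 of 251 columns), against 48.8 to 52.4% for the other Saa pairs. The authors kept uniquely mapped reads only. Of the 50-bp sequences within 1 kb of the Saa1 TSS, 26.7% occurred more than once in the genome on either strand, and of those at Saa2, 25.5%. These shares were higher than at 91.9% and 91.7% of all protein-coding promoters, while the other 8 members had 0 to 2.15%. The part of repeated sequence in the absence of promoter peaks at Saa1 and Saa2 was not tested, and the read length was not given in the sources used here. In the sequences, written 5′ to 3′ on the gene's strand and ending at the base before the TSS, capitals mark matches to the letters TTGCNNAA, a form of the C/EBP binding site.
Saa1 promoter (chr7:53998351-53998600, mm9, reverse strand): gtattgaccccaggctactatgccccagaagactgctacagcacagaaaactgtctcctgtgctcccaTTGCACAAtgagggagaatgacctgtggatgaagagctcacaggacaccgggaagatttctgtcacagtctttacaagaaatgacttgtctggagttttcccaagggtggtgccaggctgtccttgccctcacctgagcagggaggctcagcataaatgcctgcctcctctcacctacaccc
Saa2 promoter (chr7:54006953-54007202, mm9, forward strand): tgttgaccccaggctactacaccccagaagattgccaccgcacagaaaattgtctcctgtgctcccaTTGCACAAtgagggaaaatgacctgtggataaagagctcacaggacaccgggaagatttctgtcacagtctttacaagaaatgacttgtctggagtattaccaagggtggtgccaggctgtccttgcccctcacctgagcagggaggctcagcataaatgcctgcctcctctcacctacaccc

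Saa3 differed from its neighbours in the window. A CAC peak covered part of its intron (CTCF chr7:53969866-53970297, Rad21 chr7:53969821-53970378), with summits 965 and 979 bp past the TSS. Its Rad21 fold enrichment of 13.3 was the highest at any member promoter and stood above 85.7% of the Rad21 list. Its CTCF fold enrichment of 8.73 stood above 62.6% of the CTCF list. The peak held a CTCF motif of 19 bits, where bits measure the match to a 20-bp matrix learned from 1000 of the strongest CTCF peaks (lowest fold enrichment 23.9) and 12.7 bits was the threshold, reached by 1% of windows of the same width beside peaks. The motif is shown in capitals within its flanks, followed by the Saa3 promoter, in which capitals mark, in order, a match to the NF-kB form GGNNTTTCC and a match to TTGCNNAA, each on the strand opposite to the printed one.
Saa3 intron CTCF motif (capitals chr7:53970075-53970094, mm9, forward strand): atcacTCTCCACAAGGGGGCAGTAGaggcc
Saa3 promoter (chr7:53971047-53971296, mm9, reverse strand): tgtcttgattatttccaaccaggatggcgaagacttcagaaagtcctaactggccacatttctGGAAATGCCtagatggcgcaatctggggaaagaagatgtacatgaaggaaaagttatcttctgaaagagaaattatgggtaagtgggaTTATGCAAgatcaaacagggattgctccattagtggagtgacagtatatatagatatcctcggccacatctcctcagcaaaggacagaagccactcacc

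The strongest peak of the Saa window in both lists lay in an intron of Hps5, a gene for lysosome-related organelles, 19087 bp past the Saa2 TSS (CTCF 21.4, Rad21 16.6). Its best motif match scored 11.6 bits, just under the threshold. On the other side of the genes, a CTCF peak of 17.4 lay 55 bp upstream of the TSS of Saal1 and 4941 bp past the Saa3 TSS. Its CTCF value stood above 85.5% of its list, while the overlapping Rad21 peak of 3.94 stood above 33.3% of its own. At the window's edge, a peak beside the TSS of Tph1, which makes a tryptophan hydroxylase for serotonin synthesis, had the same order, with CTCF at 15 (above 79.9%) and Rad21 at 3.65 (above 26.5%). The Saa3 intron peak had the opposite order.

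The Orm window (chr4:62955594-63076912, mm9) held 10 CTCF and 9 Rad21 peaks, and each list had 7 CAC peaks among them. Orosomucoids, or alpha-1-acid glycoproteins, bind drugs and other small molecules in plasma. Orm1 and Orm2 lie in the same direction with TSSs 17.9 kb apart, and Orm3 lies between them. At Orm1 a Lone CTCF peak covered the TSS (chr4:63005412-63005878, summit 92 bp past it) with a fold enrichment of 3.22, above 13.3% of the CTCF list, and no Rad21 peak lay within 1 kb. The nearest Rad21 peak, a CAC peak of 5.88 with a CTCF value of 3.66, had its summit 5799 bp upstream. At Orm2 both lists had a peak over the TSS, with CTCF at 5.36 (chr4:63023090-63023683) and Rad21 at 4.48 (chr4:63023152-63023577). Orm3 had a CNC peak of 3.32 and no CTCF peak within 1 kb. The promoters of Orm1 and Orm2 are shown because their peaks differed while 210 of 251 aligned columns were identical (83.7%). Repeated 50-bp sequences made up 1.69% of the Orm1 promoter and 0.871% of the Orm2 promoter. Capitals mark TTGCNNAA.
Orm1 promoter (chr4:63005344-63005593, mm9, forward strand): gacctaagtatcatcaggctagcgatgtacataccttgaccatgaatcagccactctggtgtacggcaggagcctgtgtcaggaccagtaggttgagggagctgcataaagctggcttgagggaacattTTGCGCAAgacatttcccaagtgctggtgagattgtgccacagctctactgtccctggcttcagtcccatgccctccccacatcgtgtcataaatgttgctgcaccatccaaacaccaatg
Orm2 promoter (chr4:63023233-63023482, mm9, forward strand): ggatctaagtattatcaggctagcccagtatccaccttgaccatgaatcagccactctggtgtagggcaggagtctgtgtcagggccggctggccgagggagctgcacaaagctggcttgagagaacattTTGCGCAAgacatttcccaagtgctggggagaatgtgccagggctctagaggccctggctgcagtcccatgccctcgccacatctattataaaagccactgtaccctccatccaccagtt

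The tall peaks of the Orm window stood on both sides of the genes. The strongest CTCF peak (22.6, above 95.5% of the list) lay in an intron of the collagen gene Col27a1, 24805 bp upstream of Orm1, with Rad21 at 12.5. The strongest Rad21 peak (17.4, above 92.6%) also lay in Col27a1, 36934 bp upstream, with CTCF at 19.7. Past Orm2, in an intron of Akna, a CAC peak had a CTCF value of 21, a Rad21 value of 13.9 and a motif of 21.2 bits, 2.88 kb from the gene's end.

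The Hp window (chr8:112049030-112153072, mm9) held 11 CTCF and 10 Rad21 peaks. Hp encodes haptoglobin, which binds free haemoglobin in plasma. The Hp promoter had a CNC peak (chr8:112102725-112103089) whose summit lay 260 bp past the TSS, in an intron, with a Rad21 fold enrichment of 3.5, above 23.7% of the list. It was the only CNC peak of the window, and the nearest CTCF peak edge was 5879 bp from the TSS. Of the 11 CTCF peaks 10 were CAC, and the other was a Lone CTCF peak of 6.05 in Pkd1l3. This gave 9.61 CAC peaks per 100 kb, higher than in 94.1% of the windows built in the same way around each protein-coding gene, whose median was 3.74. The strongest CTCF peak (17.8, Rad21 7.65) lay in an intron of the RNA helicase gene Dhx38, 27.3 kb past the Hp TSS. The strongest Rad21 peak (13.5, CTCF 10.1) lay in an intron of Pmfbp1. A Rad21 peak of nearly the same value (13.4, CTCF 9.7) lay in an exon of Dhodh, which encodes an enzyme of pyrimidine synthesis, 14.3 kb upstream of Hp. Its neighbour 16.9 kb upstream had the higher CTCF value, 16.1, and a Rad21 value of 4.88.

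Crp and Apcs encode the pentraxins C-reactive protein and serum amyloid P component, ring-shaped proteins that mark damaged cells and microbes for clearance. In mice Apcs is the strongly induced member. Their TSSs lie 197.0 kb apart on chromosome 1, and neither window held another protein-coding gene. The Crp window (chr1:174578187-174680097, mm9) held 5 CTCF and 7 Rad21 peaks. A pair of weak CAC peaks lay at the Crp promoter. The upstream peak had a CTCF value of 3.65 and a Rad21 value of 3.6, with summits 192 and 103 bp before the TSS. The downstream peak, in an exon, had values of 3.06 and 3.94. The 4 CNC peaks of the window lay 45672 and 12676 bp upstream and 8462 and 12031 bp downstream of the Crp TSS, with values of 4.4, 4.81, 4.84 and 2.41. The strongest peak in both lists stood near the window's edge, 47.4 kb upstream (CTCF 15.8, Rad21 13).

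The Apcs window (chr1:174774093-174875185, mm9) held the fewest CTCF peaks, 4, and 7 Rad21 peaks. Its highest CTCF value was 6.32, the lowest maximum among the 6 windows, where the others reached 15.8 to 22.6. A CNC peak covered the Apcs TSS (chr1:174824868-174825463) with a value of 5.99, above 61.2% of the Rad21 list, and was the strongest CNC peak of the 20. A neighbouring CNC peak of 3.6 had its summit in an exon 591 bp past the TSS. A Lone CTCF peak of 3.3 lay 803 bp upstream and overlapped neither of them. The Apcs promoter is shown because it held the strongest CNC peak of any member. Capitals mark TTCNNNGAA, a STAT site form, and both copies of CTGGGAA, the core of the type II interleukin-6 element, which lies here on its opposite strand.
Apcs promoter (chr1:174825186-174825435, mm9, reverse strand): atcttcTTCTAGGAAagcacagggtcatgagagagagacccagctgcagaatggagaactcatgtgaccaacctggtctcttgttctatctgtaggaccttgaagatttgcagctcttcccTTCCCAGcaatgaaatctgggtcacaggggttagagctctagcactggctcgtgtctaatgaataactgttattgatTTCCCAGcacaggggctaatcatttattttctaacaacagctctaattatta
The 3 CAC peaks of the window lay past the gene's end, 23.3 to 40.1 kb from the TSS, and in each the Rad21 peak stood higher in its own list than the CTCF peak did. The Rad21 values were 8.63, 8.18 and 5.83 (above 74.3%, 72.9% and 59.8% of the list), and the CTCF values were 4.4, 6.32 and 5.09 (above 34.3%, 51.6% and 42.1%). Repeated 50-bp sequences made up 23.9% of the Crp window and 13.9% of the Apcs window, against 3.25 to 8.0% of the other 4.

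The Lbp window (chr2:158082229-158208588, mm9) had the most CTCF peaks, 14, and 14 Rad21 peaks. Lbp encodes lipopolysaccharide-binding protein, which hands bacterial lipopolysaccharide to CD14. The median CTCF fold enrichment of the window was 13.4, against 4.74 to 7.18 in the other 5. At the Lbp promoter, by contrast, both CAC peaks were weak. The peak before the TSS had a CTCF value of 3.25 and a Rad21 value of 2.93, and the peak after it had 2.92 and 3.75. Within the gene, a CAC peak 10.1 kb past the TSS had a CTCF value of 11.7, a Rad21 value of 8.17 and a motif of 17.4 bits. The same CTCF peak overlapped another Rad21 peak, of 3.95, with its summit 10.7 kb past the TSS. A weaker CAC peak of the gene, with CTCF at 4.9, Rad21 at 3.31 and a motif of 14.7 bits, had its CTCF summit 4.66 kb past the TSS. The strongest Rad21 peak of all 6 windows (22.9, above 98.1% of the list) lay 41.6 kb past the Lbp TSS, with CTCF at 22.6 (above 95.6%). A CAC peak of 20.5 and 20.1 lay between it and the gene. Upstream, between Lbp and the related gene Bpi, whose product kills gram-negative bacteria, a CAC peak had a CTCF value of 21.9 and a Rad21 value of 17.7, and its best motif match of 12.6 bits fell just under the threshold. A CTCF peak of 21.7 (above 94.3%) 55.1 kb past the TSS had a Rad21 value of 6.25 (above 63%).

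Across the 10 members, 6 had a CTCF peak within 1 kb of an annotated TSS (Saa3, Orm1, Orm2, Crp, Lbp and Apcs), and 54.0% of all protein-coding genes did. A Rad21 peak was present at 7 (Saa3, Saa4, Orm2, Hp, Crp, Lbp and Apcs), against 53.3% of all genes. A CAC peak was present at 4 members, Saa3, Orm2, Crp and Lbp, against 49.6% of all genes. A CNC peak was present at 3 members, Saa4, Hp and Apcs, against 11.8% of all genes. With 10 members these counts stand beside the background as a description. They rest on weak peaks: among peaks with a fold enrichment of at least 5, 2 members had a CTCF promoter peak and 2 had a Rad21 promoter peak. Of the 20 CNC peaks in the windows 2 had a fold enrichment of at least 5, and both lay in the Apcs window. The shares of all genes and of all CNC peaks at this threshold were not computed, so these counts have no background.

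Where present, the promoter peaks were mostly weak. The strongest CTCF promoter peak of each of the 6 members had a median fold enrichment of 3.47 and a range of 3.22 to 8.73, while the 12066 genes with such a peak had a median of 6.63 and quartiles of 4.54 and 11.5. The strongest Rad21 promoter peak of the 7 members had a median of 3.94 and a range of 3.11 to 13.3, against a median of 5.44 and quartiles of 4.19 and 7.44 over 11917 genes. Saa3 exceeded the median of all genes in both lists, Apcs in the Rad21 list, and the other members with a peak were below it.

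**Figure D2:**
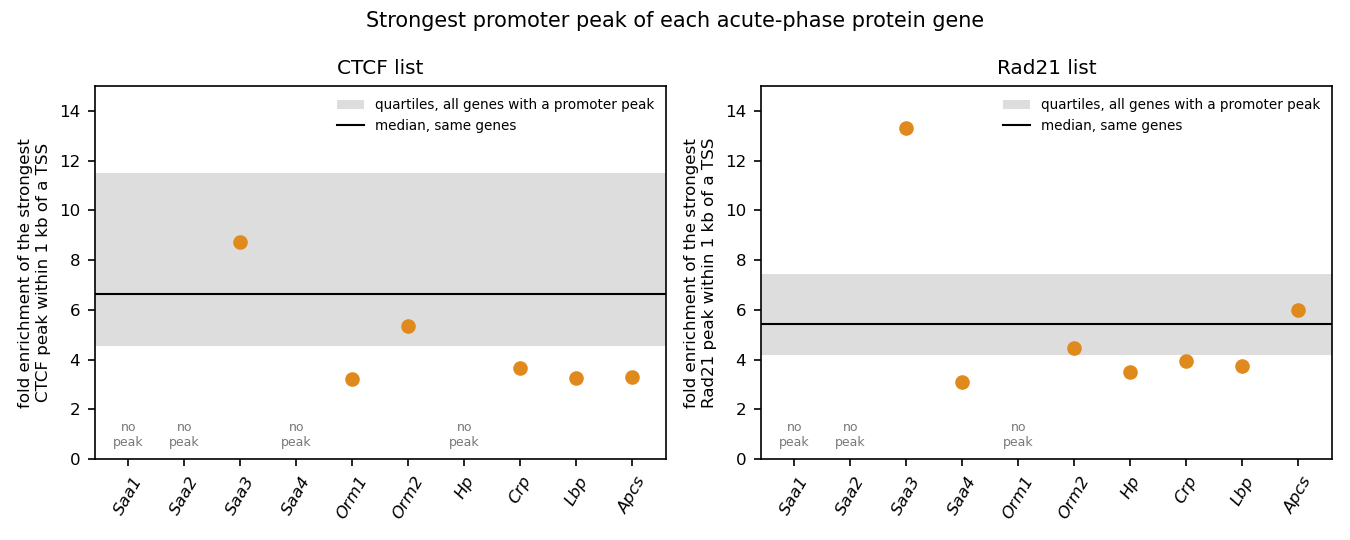
Fold enrichment of the strongest CTCF peak (left) and Rad21 peak (right) within 1 kb of a TSS for each member (orange points), with the median (line) and quartiles (grey band) of all protein-coding genes that have such a peak. In the CTCF list the members other than Saa3 sat between 3.22 and 5.36, under the median of 6.63, and in the Rad21 list Saa3 stood at 13.3.

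The 250 bases before each member's TSS were searched on both strands for 5 letter patterns. TTGCNNAA (C/EBP) was present in all 6 Saa and Orm promoters and in none of the other 4, and 8.99% of 22342 protein-coding promoters held it. The match began 182 bp before the TSS in Saa1, 183 in Saa2, 99 in Saa3, 112 in Saa4, 121 in Orm1 and 120 in Orm2. Because Saa1 and Saa2 are near copies, as are Orm1 and Orm2, these 6 matches are not independent. GGNNTTTCC (NF-kB) was present in Saa3 and Lbp, against 4.82% of promoters, and TTCNNNGAA (STAT) in Apcs, against 6.78%. CTGGGAA was present in Apcs, against 8.9%, and can overlap TTCNNNGAA. GTTAAT, part of the HNF-1 site, was in no member's 250 bases, and 5.63% of promoters held it. CpG dinucleotides numbered 0 to 4 in the members' promoters, where the median promoter had 9.0. A letter match is no evidence of binding by the factor. The 6 promoters with TTGCNNAA comprised the 2 without a peak in either list, 1 with CTCF alone, 1 with Rad21 alone and 2 with both.

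CNC peaks were densest in the Saa, Apcs and Crp windows. Per 100 kb there were 4.92 in Saa, 3.96 in Apcs and 3.92 in Crp. These densities were higher than in 97.7%, 94.8% and 94.6% of the 22350 protein-coding gene windows, whose median was 0.699 with quartiles of 0.0 and 1.78. The Orm window had 1.65, the Lbp window 1.58 and the Hp window 0.961, higher than in 72.3%, 71.3% and 62.7%. The 6 windows fell on both sides of the upper quartile. These densities count weak peaks too: the highest CNC fold enrichment was 4.39 in Saa, 4.84 in Crp and 5.99 in Apcs. Densities at stricter peak thresholds were not computed. For CAC peaks the order was different: Hp had 9.61 per 100 kb and Lbp 8.71 (higher than in 94.1% and 90.9% of windows), Orm 5.77, Saa 5.62, Apcs 2.97 and Crp 2.94. The pentraxin windows, with the lowest CAC densities, were under the median of 3.74.

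**Figure D3:**
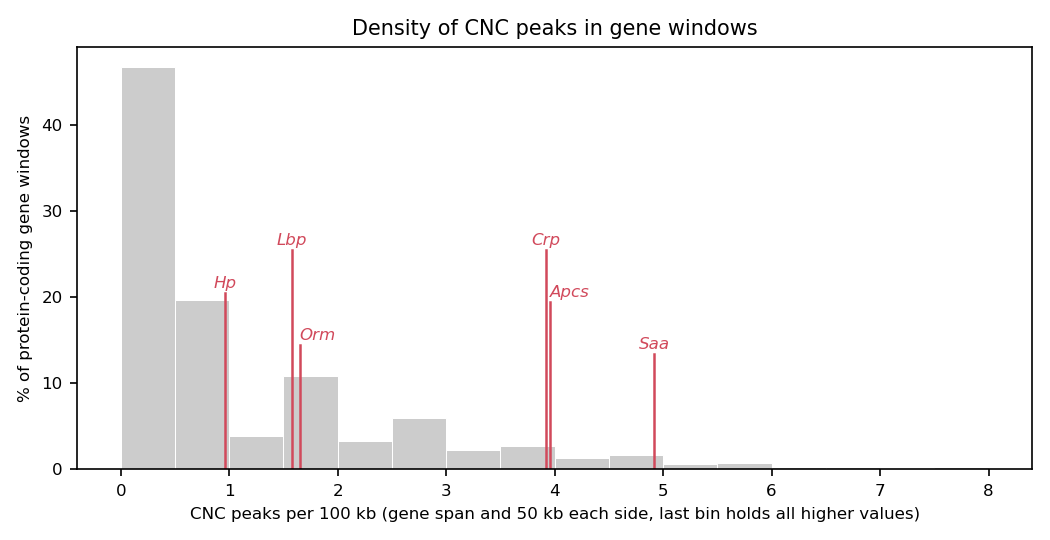
Distribution of CNC peaks per 100 kb over the windows of all 22350 protein-coding genes (grey bars, percent of windows), with the 6 acute-phase windows as red lines whose heights have no meaning. Saa, Apcs and Crp stood at 4.92, 3.96 and 3.92, in the upper tail, and Hp, Lbp and Orm at 0.961 to 1.65.

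A CTCF motif was found within 100 bp of the summit in 26 of the 54 CTCF peaks, or 48.1% (35.4 to 61.1%), and in 43.7% of all CTCF peaks outside the training set. It was present in 21 of the 42 CAC peaks, where 45.0% of all CAC peaks outside the training set had it, and in 5 of the 12 Lone CTCF peaks, where 40.2% of all such peaks had it. It was present in 0 of the 20 CNC peaks, and 2.69% of all CNC peaks had it. Among the CTCF peaks with a fold enrichment of at least 13.5 in the windows, those with no motif above the threshold were the Hps5 and Bpi-side peaks described, the Lbp peak of 21.7 (8.4 bits), the Dhodh peak of 16.1 (12.2 bits) and a peak of 13.5 between Akna and Whrn (12.3 bits).

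The nearest CAC peak with a motif on each side of every member span was then taken, with the strand of its motif, because the direction of the motif is known to set on which side of CTCF cohesin is held. A pair is convergent when the left motif lies on the forward strand and the right motif on the reverse strand, so that they point toward the gene. Hp and Lbp had convergent pairs, 2 of 6 loci, and 28.3% of 22151 protein-coding genes had them. The Hp pair was the closest, with summits 21.5 kb apart, a distance under which 2.72% of genes fell. Its left member was weak, with CTCF at 5.24 and Rad21 at 3.06. When peaks had to reach a fold enrichment of 5 or a −log10 q of 10, or CAC summits had to lie within 100 bp, a site farther left took its place and the Hp pair was 41.7 kb apart, still convergent. The Lbp pair was 64.9 kb apart and strong on both sides, with CTCF at 15 and 20.5 and Rad21 at 13.5 and 20.1. The Saa and Orm pairs pointed away from the genes, at 253.0 and 49 kb, and in the Crp and Apcs pairs, at 217.0 and 456.0 kb, both motifs lay on the forward strand. The directions at Saa and Apcs changed with the settings. With a 5% motif threshold, or with motifs within 50 bp of the summit, both Saa motifs lay on the reverse strand, 60.2 kb apart, and the Apcs pair was convergent, 154.0 kb apart. With CAC summits within 100 bp both Saa motifs lay on the forward strand, 298.0 kb apart. Over all genes the median distance was 139.0 kb with quartiles of 70.6 and 328.0 kb.

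The site to the right of Crp and that to the left of Apcs was the same CAC peak, with CTCF at 6.32 and Rad21 at 8.18, 168.0 kb past Crp and 26 kb past the end of Apcs. The flanking sites are printed 5′ to 3′ on the strand of the motif, with the 20-bp match in capitals, because their strands give the direction of each pair. All positions are those of the capitals in mm9.
Saa left (chr7:53966088-53966107, reverse strand): ggagcCTGACGGCAGGGGGCGCTGTgtggg
Saa right (chr7:54218778-54218797, forward strand): gaaaaCAACCAGAAGGTGGCGCTCAtatac
Orm left (chr4:62980799-62980818, reverse strand): acaaaGGCCCACCAGAGGGTGCCCGtggac
Orm right (chr4:63029802-63029821, forward strand): gcatcTGGCCAGCAGGTGGCAGCACagcac
Hp left (chr8:112095918-112095937, forward strand): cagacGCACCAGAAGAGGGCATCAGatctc
Hp right (chr8:112117436-112117455, reverse strand): attctGATCCACCAGGGGTCACTGTttgtc
Crp left (chr1:174580812-174580831, forward strand): gtgatTCTCCAGTAGGGGGCAGCTCtgagc
Crp right and Apcs left (chr1:174798005-174798024, forward strand): tgtgaTGTCCACCAGATGTCTCAATctgct
Lbp left (chr2:158101260-158101279, forward strand): ataccCTCCCAGAAGGGGGCGCTAGagatc
Lbp right (chr2:158166109-158166128, reverse strand): ggccaCAGCCTCTAGAGGGCGCCACgaggc
Apcs right (chr1:175254117-175254136, forward strand): gcttcTGAACACTAGAGGGCGCCCAggcac

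**Figure D4:**
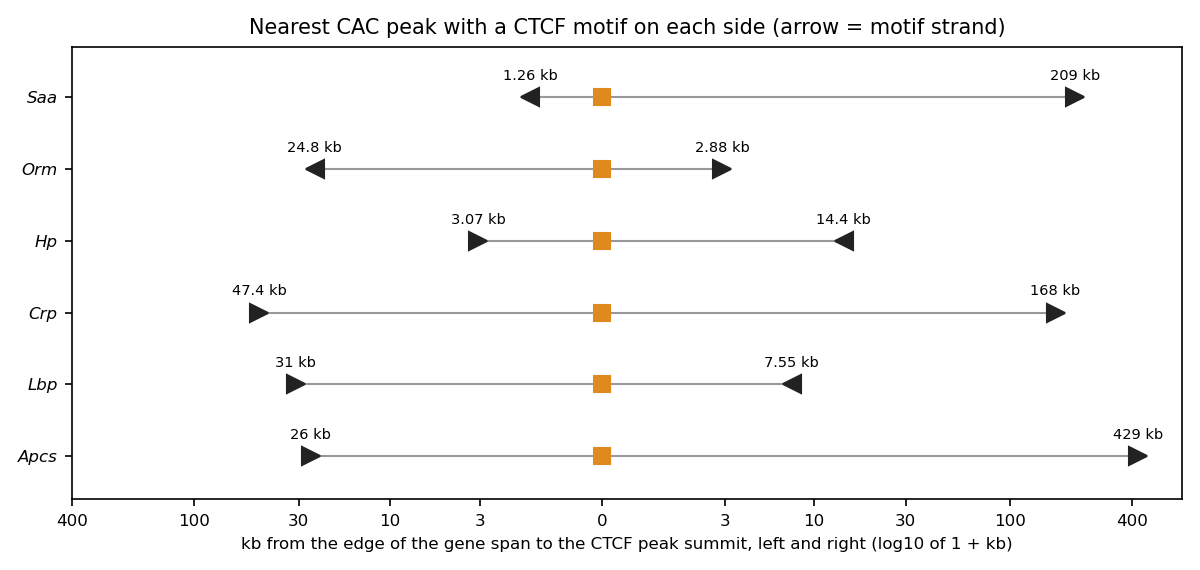
Nearest CAC peak with a CTCF motif on each side of the 6 gene spans (orange squares), by distance in kb from the span's edge on a log10 scale of 1 + kb, with arrows for the motif strand (right: forward, left: reverse). The arrows of Hp and Lbp point toward the gene, those of Saa and Orm away from it, and those of Crp and Apcs both to the right, with the directions at Saa and Apcs changing under other settings.

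Several motif sites in the windows were close copies of each other. The 9 letters AGAAGAGGG, picked after the sites were seen, were present in 6 of the 26 motif-bearing CTCF peaks: 1 in the Saa window, 2 in Hp and 3 in Lbp. In the list as a whole, 6701 of 30400 motif-bearing CTCF peaks held them, so the share of 23.1% in the windows was near the 22.0% of the list. As background, the rodent B2 family of short interspersed repeats carries CTCF sites of this form. No repeat annotation was used here, and the sites were not assigned to repeats. Peaks with these letters were weaker and less often shared with cohesin. Their median CTCF fold enrichment was 5.07 in the windows and 5.77 in the list, against 15 and 13.3 for motif-bearing peaks without the letters. Of the 6 peaks 3 were CAC, and of the 20 without the letters 18 were, and in the list these shares were 47.4% and 84.2%. The left site of the convergent Hp pair was among the 6. A pair of examples is shown with the sites at Lbp that carry these letters, the first inside the gene with CTCF at 4.9 and Rad21 at 3.31, and the other in Snhg11 with CTCF at 22.0 and Rad21 at 11.
Lbp intron site (capitals chr2:158136835-158136854, mm9, reverse strand): catggAAACCAGAAGAGGGCATCAGatccc
Snhg11 intron site (capitals chr2:158205680-158205699, mm9, reverse strand): cccaaACGCCAGAAGAGGGCATCAGatccc

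Other genes of the response were counted by their promoter peaks. Another 26 genes were taken as positive acute-phase genes, the class that rises in inflammation, among them the fibrinogen chains, complement C3 and hepcidin. The rise of each gene in mice was not checked here. Of the 26, 10 had a CTCF peak, 16 a Rad21 peak, 6 a CAC peak and 14 a CNC peak. The CNC share was 53.8%, beside 11.8% of all protein-coding genes, and the CAC share 23.1%, beside 49.6%. At the genes with a CNC peak, the Rad21 value was mostly low, from 2.43 (C3) to 4.81 (Hamp) apart from Il1rn and Steap4. The median of the whole Rad21 list was 4.93. Neither list had a peak at Cp, Fgb, Fgg, Fgl1, Hamp2, Lrg1 or Mt2. By Rad21 value the strongest of this list were the chemokine gene Cxcl1, with CTCF at 12.2 and Rad21 at 10, the interleukin-1 receptor antagonist gene Il1rn, with Rad21 at 8.2 and CTCF at 3.71, and Steap4, with Rad21 at 5.0 alone. Of 8 negative acute-phase genes, whose products fall in inflammation, 5 had a CNC peak (62.5%) and 3 a CAC peak. By Rad21 value the strongest were Rbp4, the plasma retinol carrier gene (Rad21 4.43, CTCF 3.67), and the CNC peaks of Trf (transferrin, 3.32) and Tdo2 (tryptophan dioxygenase, 3.27).

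The signalling genes from the interleukin receptors to the nucleus had more CAC than CNC promoters, the order also found over all genes. Of 18 matched genes 17 had a CAC peak at the promoter (94.4%), beside 49.6% of all protein-coding genes. A CNC peak was present at 4 (22.2%), beside 11.8%, and Il6st, the shared receptor chain gp130, had neither. By Rad21 value the strongest was Stat3, the transcription factor of the interleukin-6 response, with CTCF at 26.1 and Rad21 at 21.8. The interleukin-1 receptor-associated kinase gene Irak1 followed with 17.8 and 13.6, and the receptor-associated kinase gene Jak1 with 5.28 and 9.76. The highest promoter CTCF value was 26.1 among the signalling genes, 12.2 among the other positive acute-phase genes, 8.73 among the members and 3.67 among the negative acute-phase genes.

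**Figure D5:**
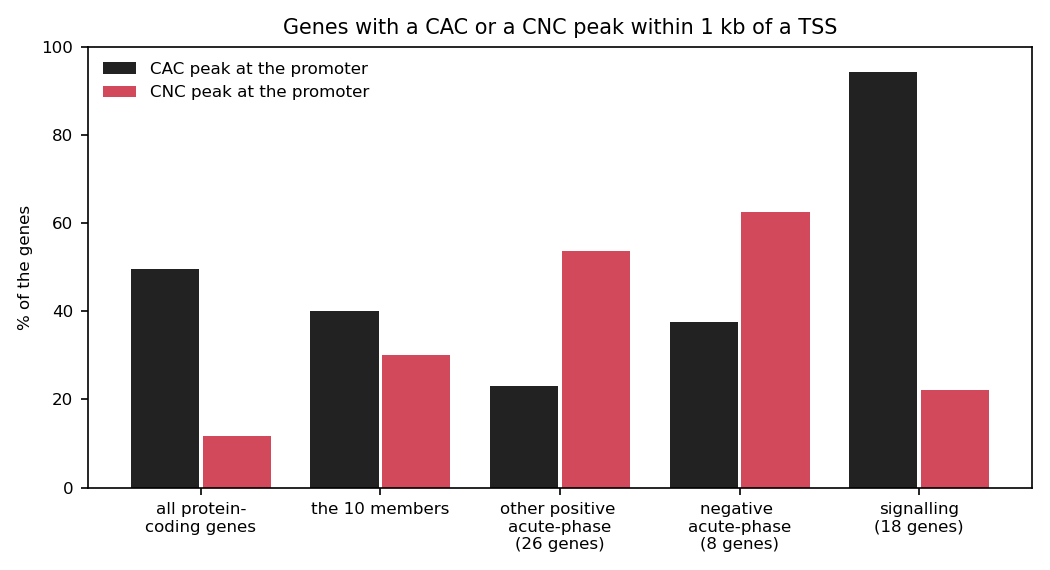
Percent of genes with a CAC peak (black) and with a CNC peak (red) within 1 kb of a TSS, for all protein-coding genes, the 10 members and the 3 lists of other genes in the response; a gene can have both. The CNC bar was the taller in the positive (53.8% against 23.1%) and negative acute-phase lists (62.5% against 37.5%), and the CAC bar in the members, the signalling genes (94.4% against 22.2%) and all genes (49.6% against 11.8%).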

How the data were processed

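ChIP-seq for CTCF (4 libraries) and Rad21 (3 libraries) from livers of female mice aged 8 weeks was used. Bowtie2 was used by the authors for alignment to mm9, with only unique alignments retained. They combined the libraries per antibody before MACS2 peak calling, then dropped blacklisted peaks and those made of identical reads. The deposited lists hold, for each peak, a fold enrichment over local background, a −log10 q value and a summit position. Fold enrichment was compared within a list, never between the CTCF and Rad21 lists, for which ranks were given side by side. No read counts or depths per library were in these lists, 0 per-sample columns were left unused, and male libraries were not analysed here.

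Peaks were matched to GENCODE vM1 genes on the NCBIM37 genome, the same build as mm9, after comparing chromosome names and lengths with the peak ends. A promoter peak overlapped the 1 kb on either side of any annotated TSS. The CTCF matrix of 20 bp was learned within 50 bp of 1000 strong summits on odd-numbered autosomes, and its threshold of 12.7 bits was set on 55849 windows placed 1000 bp from peaks. Repeated sequence was the share of 50-bp sequences found more than once on either strand. Overlap, motif and repeat code was tested on simulated data. Software was numpy 2.4.6, scipy 1.17.1, pandas 2.3.3, pysam 0.24.0, biopython 1.88, samtools 1.23.1 and matplotlib 3.10.9. Intervals are Wilson 95% intervals and cover counting error only. All 10 members were named, with promoter peaks, peaks within member spans, the strongest peaks and the flanking CAC peaks, and with the 3 strongest genes of each list. The members, gene lists and promoter patterns were chosen with earlier results of these data known. Alternatives changed the peak threshold, overlap, window, promoter distance, TSS choice, motif threshold and repeat length.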

Additional observations from a re-analysis of the deposited data

How the results depend on the processing

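Of 48 peak counts, shares and medians recomputed under other settings (repeated sequence is given separately), 31 stayed near the value given (counts within 1.5 times, shares within their Wilson interval, medians within a 95% interval from the ranked peaks) and 17 moved. With peaks of −log10 q of at least 10, there were 41 Rad21 and 12 CNC peaks in the windows, median fold enrichments of 9.22 (CTCF, inside its interval) and 5.99 (Rad21), and 2 members with a CTCF promoter peak. With fold enrichment of at least 5, there were 34 CTCF, 25 Rad21 and 4 CNC peaks, a CAC share of 61.8%, medians of 13.7 (CTCF) and 12.5 (Rad21), and 2 members with a CTCF promoter peak and 2 with a Rad21 promoter peak. Both settings remove weak peaks, and a Rad21 peak whose CTCF partner was removed then counted as CNC: 9 of the 12 and 2 of the 4 CNC peaks were CNC in the full lists. With summits within 100 bp as the rule for CAC, the CAC share was 63%. Windows of 25 kb on each side held 35 CTCF peaks, 14 of them with a motif, and windows of 100 kb held 82 CTCF and 32 CNC peaks. With 36-bp sequences, the repeated share of the promoters rose to 34.5% (Saa1), 32.6% (Saa2), 6.71% (Orm1), 5.7% (Orm2), 5.95% (Saa4), 2.14% (Lbp) and 1.02% (Hp), and stayed at 0.0% for Saa3, Crp and Apcs. The number of convergent loci was 3 at a 5% motif threshold and with motifs within 50 bp, and 2 under the other settings. The third was Apcs (154.0 kb). The Saa pair no longer pointed away with either motif setting (both reverse, 60.2 kb) or with summits within 100 bp (both forward, 298.0 kb). No paired analysis was possible because the lists were called on pooled libraries and carry no replicate numbers, and for the same reason no replicate could be left out.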
